A study of Homo sapiens with 9 samples.

Results

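The integrated stress response and the amino acid genes downstream of it were followed as a set of 41 genes, defined by symbol and found in the count table through their Ensembl gene identifiers. All 41 were among the 24542 genes and loci of the table, and all 41 passed the filter on low counts, as did 15558 genes and loci in total. By role, the set held 5 genes of eIF2 kinases and their partners, 9 transcription factors and feedback regulators, 6 enzymes of serine, glycine and mitochondrial one-carbon metabolism, 6 enzymes of other amino acids and glutathione, 8 genes of amino acid transport and lipoprotein uptake, and 7 genes of tRNA charging and export.

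RNA was sequenced from A2780 cells, an ovarian carcinoma line of human origin with a wild-type genotype in the labels, after 96 h of treatment. The 3 control libraries came from cells with 0.5% DMSO, 3 libraries came from cells with 0.6 µM cisplatin (written Cispt in the labels), and 3 came from cells with 5.5 µM Pt-ttpy. Cisplatin crosslinks DNA, and Pt-ttpy carries platinum too and, according to the series title, binds G-quadruplexes, which are folds of guanine-rich nucleic acid. Each drug was given at its IC80, so the doses differ and the drugs are matched by toxicity, and the labels name DMSO for the control cells only. The labels call the 3 libraries of a group biological replicates without saying whether they were separate cultures. If they were not, the p-values measure only the spread between these libraries, which may be technical.

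Library totals ranged from 31.3 to 40.8 M counts. The second control library and the second cisplatin library (DMSO 2 and cisplatin 2) stood apart: in both, genes of GC-rich transcripts had relatively more counts (Spearman rho 0.54 and 0.43 across genes), whereas rho lay between −0.36 and −0.18 in the other 7 libraries. A fit without both (the fit of 7 libraries) is given as well. The marker check did not match the label of an epithelial carcinoma: 10 ovarian carcinoma and epithelial markers, among them PAX8, KRT7 and SOX17, summed to between 0.125 and 0.506 CPM in DMSO (CPM, the count of a gene relative to its library total after TMM scaling), 1.54 and 3.55 in cisplatin and 0.554 and 0.987 in Pt-ttpy, and KRT7 and SOX17 had no count in any library. Of 4 mesenchymal markers, VIM stood at 4922 to 8964 CPM, ZEB1 at 18.8 to 41.3, FN1 at 0.761 to 2.30 and CDH2 at 0 to 0.506. Fibroblast markers moved with treatment as a sum: 8 of them came to between 948 and 1070 CPM in DMSO, 1620 and 1880 in cisplatin and 1700 and 1780 in Pt-ttpy. Their part in the results was not tested. COL3A1 held the largest part of the sum, at means of 482 CPM in DMSO, 920 in cisplatin and 823 in Pt-ttpy. COL1A1 showed no such rise, at 9.88 to 12.3 CPM in DMSO, 7.92 to 14.3 in cisplatin and 8.15 to 11.1 in Pt-ttpy. FAP was at 0 in all libraries, endothelial markers summed to at most 0.401 CPM and blood markers to at most 5.73 CPM. In RNA from whole cultures, fewer cells that express a gene and less RNA of it per cell cannot be told apart.

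The integrated stress response starts when a kinase phosphorylates the translation initiation factor eIF2, which lowers general protein synthesis while the mRNA of the transcription factor ATF4 is translated better. HRI (EIF2AK1) is the kinase for heme shortage and, through OMA1 and DELE1, for mitochondrial stress, PERK (EIF2AK3) responds to unfolded protein in the endoplasmic reticulum, and GCN2 (EIF2AK4) responds to uncharged tRNA. ATF4 pairs with C/EBP proteins on a composite element and activates genes that supply amino acids: enzymes of serine and asparagine synthesis, amino acid transporters and aminoacyl-tRNA synthetases. Much of the control of ATF4 is on translation, so its mRNA level is not a measure of its activity.

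The composite element of ATF4 and C/EBP has the core TGATGNAA, in which N is any base. It was searched on both strands in promoter windows from RefSeq (GRCh38.p14), each running from 250 bases before to 50 bases after a transcription start. The table held windows for 33 of the 41 genes, and 12 of these 33 (36.4%) had the core in at least 1 window, against 1217 of the 27305 genes of the whole table (4.46%). Counted by window, the core was in 12 of 55 windows of these genes (21.8%) and in 1270 of all 35116 (3.62%). The set was chosen for its link to ATF4, and this share is a description of it. The lines that follow give the core in capitals and up to 11 bases on either side, in the direction of the gene, for 10 of the 12 genes, which are asparagine synthetase, glutathione-degrading, C/EBP, transporter and aminoacyl-tRNA synthetase genes. The core is capitalised as it reads on that strand, so TTGCATCA is the core of the opposite strand.
ASNS, chr7:97872458-97872487, minus strand: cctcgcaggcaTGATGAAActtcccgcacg
CHAC1, chr15:40953251-40953280, plus strand: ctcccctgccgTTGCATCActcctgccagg
CEBPG, chr19:33374060-33374089, plus strand: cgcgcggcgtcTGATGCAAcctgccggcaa
SLC1A5, chr19:46784893-46784922, minus strand: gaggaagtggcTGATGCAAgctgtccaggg
SLC1A4, chr2:64989381-64989410, plus strand: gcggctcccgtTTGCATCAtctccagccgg
SLC7A1, chr13:29595663-29595692, minus strand: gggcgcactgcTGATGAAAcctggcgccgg
MARS1, chr12:57488053-57488082, plus strand: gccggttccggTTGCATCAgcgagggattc
CARS1, chr11:3057407-3057436, minus strand: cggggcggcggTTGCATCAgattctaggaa
GARS1, chr7:30594834-30594863, plus strand: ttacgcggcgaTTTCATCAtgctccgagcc
AARS1, chr16:70289675-70289704, minus strand: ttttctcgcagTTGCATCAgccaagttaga

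The 12 matches lay from base −209 of CHAC1 to base 38 after the start of SLC3A2, and those of CARS1, MARS1 and SLC1A4 spanned the start itself. Against GENCODE 29, which uses the same GRCh38 chromosomes, the matches of CEBPG, JDP2 and SLC1A4 fell in introns of longer transcripts and that of AARS1 lay outside the gene. The other 8 overlapped an exon of at least 1 transcript of their gene. A match is a stretch of letters and not a measured binding site.

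**Figure D1:**
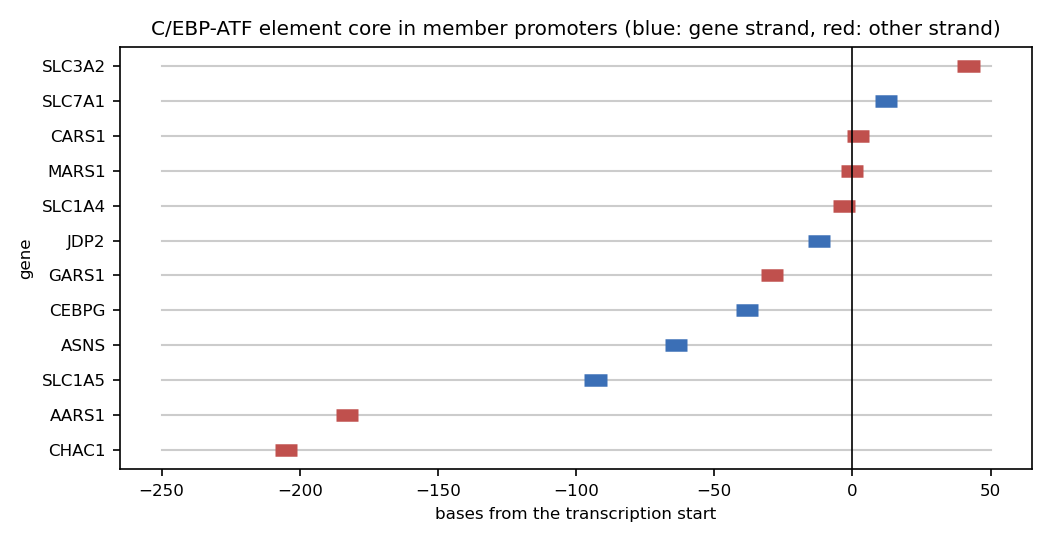
Position of the core TGATGNAA in the promoter windows of the 12 genes that hold it, in bases from the transcription start (0 on the horizontal axis). Grey lines are the windows of 300 bases, blue marks are matches on the strand of the gene and red marks are matches on the other strand; the matches reach from −209 in CHAC1 to 38 in SLC3A2.

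After 96 h 1 of the 41 genes rose with cisplatin and a different 1 with Pt-ttpy, while 11 fell with cisplatin and 3 with Pt-ttpy. With Pt-ttpy, 4 of the 41 changed against DMSO, ATF5, SLC7A5 and SLC1A5 lower and VLDLR higher. With cisplatin, 12 changed: NUPR1 rose, and ATF5, TRIB3, PSPH, SHMT2, SLC7A5, SLC3A2, SLC7A1, SLC1A5, GARS1, MARS1 and XPOT fell. A change is called at an adjusted p under 0.05 in edgeR's quasi-likelihood test, with Benjamini-Hochberg adjustment over all 15558 genes and loci. The background is high: 12.0% of all genes were called with Pt-ttpy (5.59% higher, 6.45% lower) and 20.5% with cisplatin (10.7% higher, 9.78% lower). The Pt-ttpy count of the set, 9.76%, is near its background. The cisplatin count, 29.3%, is above it in this fit, and the fallen genes make up 11 of the 12. That excess depended on the libraries and the scaling. Without cisplatin 3, 6 of the 41 and 2591 of all genes were called, so the set was not above its background. The fallen genes alone, 5 of the 41 against 1096 of all genes, still were. With upper-quartile factors the counts were 9 and 2853, a smaller excess. An unadjusted p under 0.05 was held by 4637 of all 15558 genes and loci with Pt-ttpy and by 5465 with cisplatin. Of the 41 genes, 12 and 17 held one. The median log2 change of the 41 genes was −0.07 with Pt-ttpy (0.03 over all genes tested) and −0.15 with cisplatin (0.01 over all). By role, the medians with cisplatin were 0.03 for the kinase genes, −0.15 for the regulators, −0.23 for the serine and one-carbon enzymes, −0.10 for the other enzymes, −0.37 for the transport genes and −0.39 for the tRNA genes. With Pt-ttpy they were 0.05, −0.30, −0.04, 0.01, −0.07 and −0.20 in the same order. With upper-quartile factors or plain library totals the median of all genes moved up to between 0.09 and 0.10 in both contrasts. The medians of the set then came to −0.001 and −0.007 with Pt-ttpy and to −0.06 and −0.05 with cisplatin. Under both of those scalings 2 members, NUPR1 and SLC6A9, rose with cisplatin and 7 fell. Over all genes, 870 rose and 1004 fell with Pt-ttpy, against 1050 and 666 with upper-quartile factors and 1005 and 773 with library totals. With cisplatin 1669 rose and 1521 fell, against 1940 and 913, and 1995 and 943. The values of the Pt-ttpy and DMSO libraries did not overlap for 5 genes on the higher side and 15 on the lower side, with 40.9% of all genes separate in either direction. For cisplatin these counts were 3 and 11, with 38.0% of all genes separate in either direction. The share over all genes was not split by direction, so the counts on each side have no like background. Both contrasts use the same 3 DMSO libraries. Single libraries weighed on the counts: without Pt-ttpy 1, 2 or 3 the Pt-ttpy count of the set was 2, and without cisplatin 2 it was 11. The cisplatin count was 6 without cisplatin 3 and 18 without cisplatin 2. Over all genes the Pt-ttpy count fell to 267, 185 and 299 without Pt-ttpy 1, 2 and 3, and rose to 3004 without cisplatin 2. The cisplatin count over all genes fell from 3190 to 2012 without cisplatin 2 and to 2591 without cisplatin 3.

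**Figure D2:**
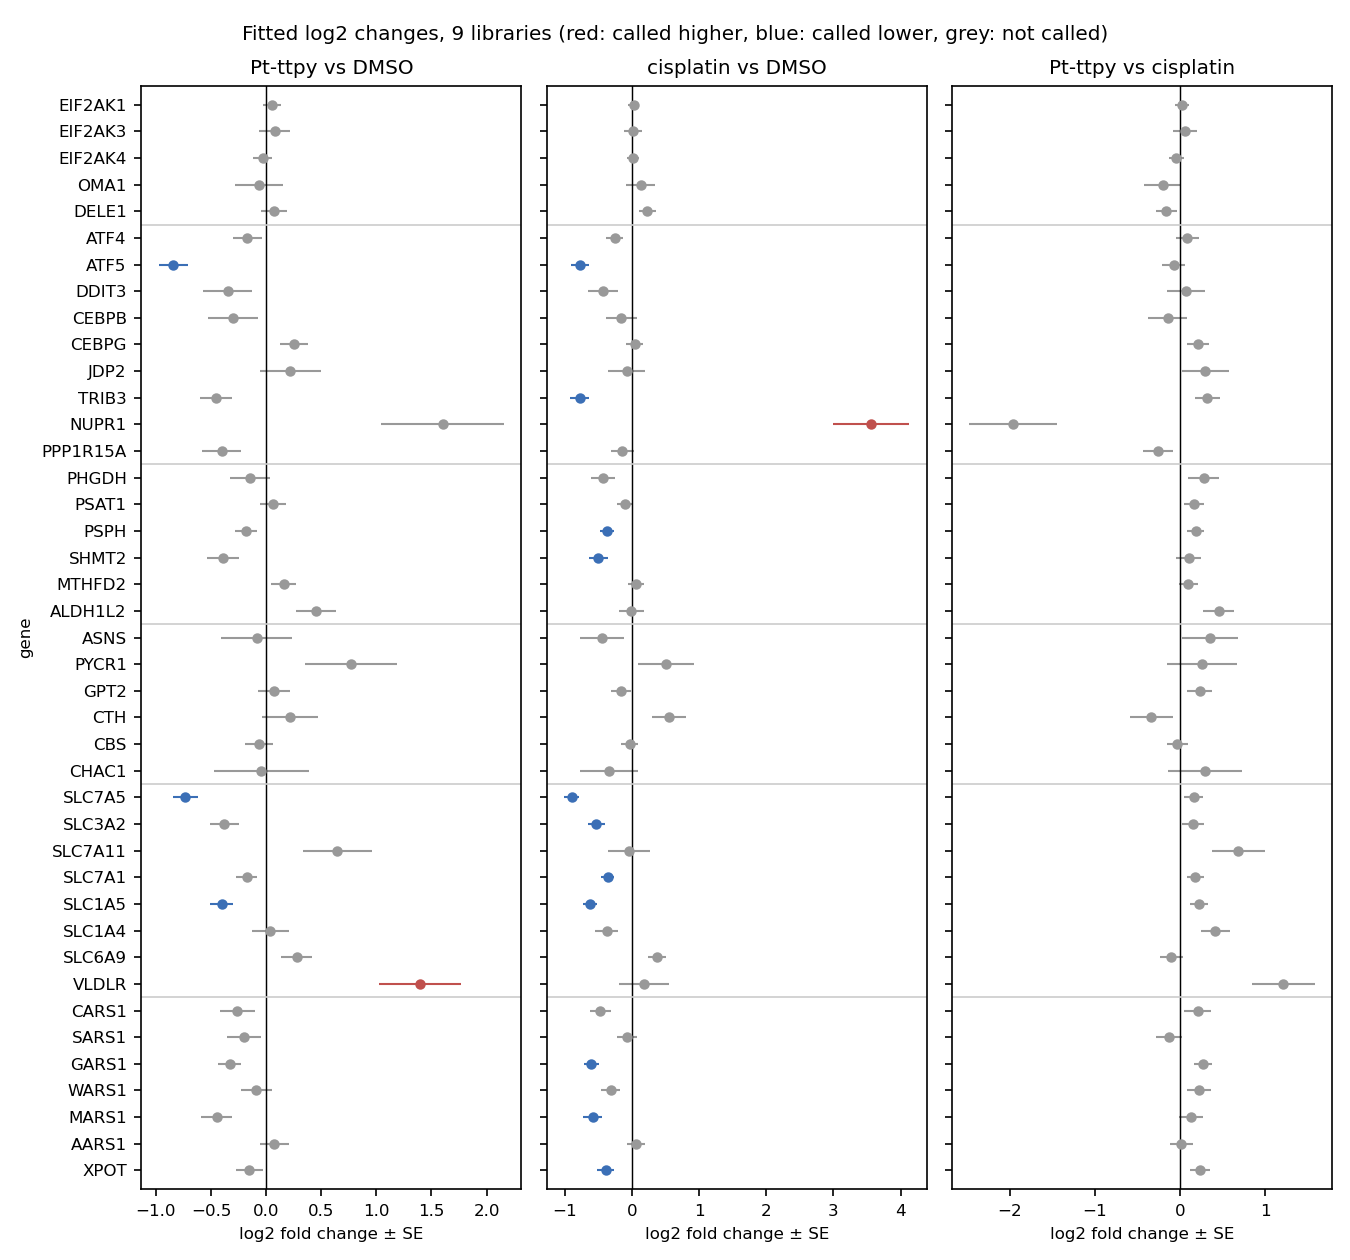
Fitted log2 fold changes of the 41 genes with their standard errors (horizontal axis), in 3 panels for Pt-ttpy against DMSO, cisplatin against DMSO and Pt-ttpy against cisplatin, from the fit of all 9 libraries. Red points were called higher and blue points lower; the panels hold 4, 12 and 0 called genes, and the horizontal scale differs between panels.

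**Figure D3:**
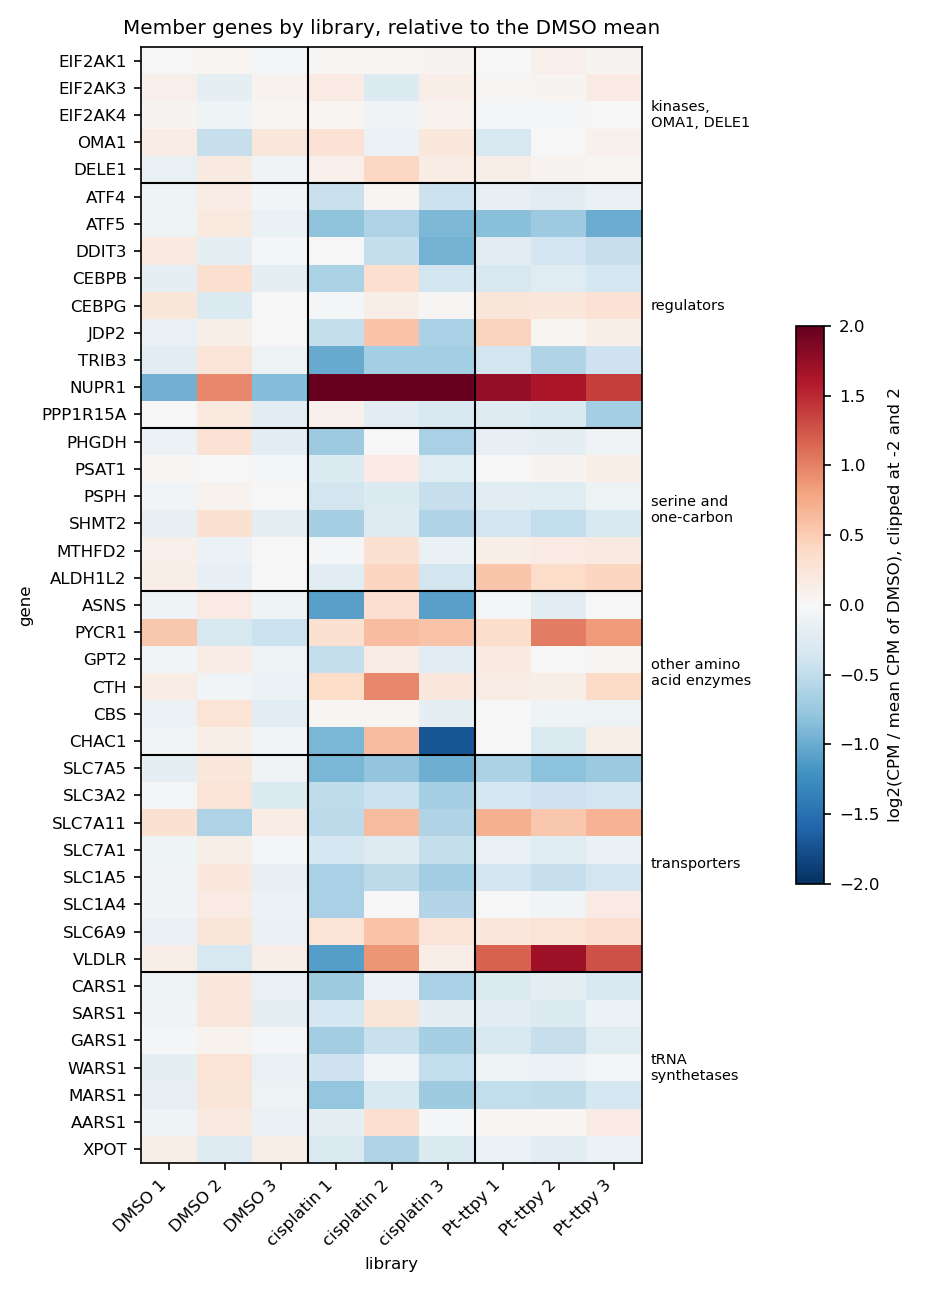
Level of each of the 41 genes in each library, as the log2 ratio of its CPM to the mean CPM of DMSO, clipped at −2 and 2, with genes ordered by role. The row of NUPR1 is red in all 6 treated libraries and the rows of ATF5 and SLC7A5 are blue in all 6, while ASNS and CHAC1 are blue in cisplatin 1 and 3 but not in cisplatin 2.

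Set by length, the most abundant of the 41 mRNAs in DMSO were those of PSAT1 at 210 CPM per kilobase of exon, ATF4 at 142, SLC7A5 at 117, SLC1A5 at 97.5 and AARS1 at 83.8. The least abundant were CTH at 1.15, VLDLR at 0.613, PYCR1 at 0.234 and NUPR1 at 0.0964 CPM per kilobase. PYCR1, an enzyme of proline synthesis, thus had few counts in this line.

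None of the kinases and their partners passed edgeR's test with either drug, with 0 genes at an unadjusted p under 0.05, and none was called by DESeq2. The HRI gene EIF2AK1 stood at 190.5, 197 and 186 CPM in DMSO 1, 2 and 3, 194, 193 and 198 with cisplatin and 191, 205 and 198 with Pt-ttpy. The PERK gene EIF2AK3 lay between 27.3 and 37.3 CPM and the GCN2 gene EIF2AK4 between 159.7 and 176.5 CPM over the 9 libraries. The protease gene OMA1 lay between 5.53 and 9.34 CPM, and DELE1, which carries the mitochondrial signal to HRI, lay between 61.7 and 91.3 CPM. In these 5 genes the log2 changes were between −0.07 and 0.08 with Pt-ttpy and between 0.01 and 0.23 with cisplatin. The 95% intervals allow changes between −0.23 and 0.38 for the 3 kinase genes with Pt-ttpy, and between −0.54 and 0.41 for OMA1, the least precise. DELE1 had the largest value, at 61.7, 77.5 and 65.3 CPM in DMSO and 73.1, 91.3 and 75.9 with cisplatin (log2 change 0.23 ± 0.12 SE, adjusted p = 0.191). Without DMSO 2 and cisplatin 2 it passed the test, at 0.23 with cisplatin (adjusted p = 0.0132) and 0.18 with Pt-ttpy (adjusted p = 0.0356), and without DMSO 2 alone it passed with cisplatin (0.34, adjusted p = 0.0473). The kinases act by their activity, which RNA levels do not measure.

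Among the transcription factors, ATF5 fell with both drugs and ATF4 itself did not pass the test. ATF4 (chr22:39519695-39522685, plus strand) stood at 333, 393 and 341 CPM in DMSO, 262, 367 and 264 with cisplatin and 317, 308 and 324 with Pt-ttpy. Cisplatin 1 and 3 were the lowest of all libraries, and cisplatin 2 lay among the controls. Its log2 change was −0.26 ± 0.13 (SE) with cisplatin (adjusted p = 0.183) and −0.17 ± 0.13 with Pt-ttpy (adjusted p = 0.415). Without cisplatin 2 the cisplatin value was −0.44 and passed the test (adjusted p = 0.0145), and without DMSO 2 as well it was −0.35 (adjusted p = 3.26e-05).

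ATF5, a stress-responsive relative of ATF4 that is linked to mitochondrial proteostasis, lies at chr19:49928702-49933935 on the plus strand. It stood at 50.05, 61.7 and 49.02 CPM in DMSO, 30.8, 34.8 and 28.8 with cisplatin and 30.1, 32.4 and 27.1 with Pt-ttpy. All 6 treated libraries lay below all 3 controls. The log2 change was −0.84 ± 0.13 (SE) with Pt-ttpy (adjusted p = 0.00589) and −0.77 ± 0.13 with cisplatin (adjusted p = 0.00367). Both calls held in all 21 alternatives tried. The exons of ATF5 overlap those of NUP62 on the opposite strand over 626 bases and of IL4I1 over 75 bases. Whether the counting used strand is not given in the sources used here, so reads of overlapping genes on opposite strands may not have been told apart.

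TRIB3, a pseudokinase that is induced by ATF4 and CHOP and dampens them, stood at 63.7, 88.2 and 68.3 CPM in DMSO, 36.5, 46 and 46 with cisplatin and 56.8, 48.4 and 55.3 with Pt-ttpy. The groups did not overlap, and the cisplatin libraries were the lowest. It fell with cisplatin by 0.78 ± 0.15 on the log2 scale (adjusted p = 0.00538), a call kept in all 21 alternatives. With Pt-ttpy the change of −0.46 ± 0.14 stayed just short of the threshold (adjusted p = 0.0598) and passed it in DESeq2 (0.0293), without DMSO 1 (0.0438), without cisplatin 2 (0.0429) and in the fit of 7 libraries (0.0248).

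NUPR1, a small chromatin protein of the stress response (chr16:28532708-28539174, minus strand), was the member with the largest change. It stood at 0.281, 1.06 and 0.299 CPM in DMSO, 5.25, 11.01 and 3.05 with cisplatin and 1.85, 1.69 and 1.42 with Pt-ttpy, with 10, 37 and 12 counts behind the control values. All treated libraries were above all controls, and the cisplatin libraries were above the Pt-ttpy libraries. The log2 change was 3.56 ± 0.57 with cisplatin (adjusted p = 0.0026), or 11.8-fold, and 1.60 ± 0.56 with Pt-ttpy (adjusted p = 0.08). The Pt-ttpy value passed the test by DESeq2 (adjusted p = 0.0243), without DMSO 2 (2.497, adjusted p = 0.0315), without cisplatin 2 (1.60, adjusted p = 0.0404) and with 7 libraries (2.497, adjusted p = 0.000148). Within the cisplatin group cisplatin 2 was 2.65 times the mean of the other two libraries.

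The remaining 5 regulators did not pass the test in either contrast with 9 libraries. CHOP (DDIT3), the transcription factor tied to cell death in long stress, stood at 12.6, 9.73 and 10.96 CPM in DMSO, 11.1, 7.96 and 5.78 with cisplatin and 9.60, 8.51 and 8.03 with Pt-ttpy, with log2 changes of −0.42 and −0.35. Cisplatin 1 lay within the controls and cisplatin 3 was the lowest library; without cisplatin 1 the cisplatin value was −0.69 and passed the test (adjusted p = 0.0473). The exons of DDIT3 share 355 bases with MARS1, which lies on the opposite strand and had a far higher CPM, so this value is uncertain. CEBPB and CEBPG, partners of ATF4, had log2 changes of −0.15 and 0.05 with cisplatin and −0.30 and 0.26 with Pt-ttpy. For JDP2, a repressor of the AP-1 family, the changes were −0.08 and 0.22, and with 7 libraries it fell with cisplatin (−0.49, adjusted p = 0.0381). PPP1R15A, the GADD34 subunit that directs a phosphatase to eIF2 and closes the feedback loop, stood at 15.2, 17.5 and 13.3 CPM in DMSO and 12.8, 12.4 and 9.54 with Pt-ttpy (−0.40 ± 0.17, adjusted p = 0.144), and at 16.2, 13.2 and 12.3 with cisplatin.

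Serine is made from a glycolytic intermediate by PHGDH, PSAT1 and PSPH, and SHMT2, MTHFD2 and ALDH1L2 pass its one-carbon unit through mitochondrial folate. PSPH and SHMT2 fell with cisplatin, and with Pt-ttpy 0 of the 6 genes passed the test in edgeR or DESeq2, with 2 at an unadjusted p under 0.05. PSPH, the last step of serine synthesis, stood at 65.4, 71.5 and 67.4 CPM in DMSO, 52.5, 56.6 and 49.5 with cisplatin and 58.95, 57.6 and 63.5 with Pt-ttpy. The 3 groups did not overlap, with cisplatin the lowest and Pt-ttpy between. Its cisplatin change was −0.36 ± 0.10 (adjusted p = 0.026) and its Pt-ttpy change −0.18 ± 0.10 (adjusted p = 0.25). The cisplatin call was lost without DMSO 3 (0.0627), cisplatin 1 (0.0649) or cisplatin 3 (0.0847), with upper-quartile factors (0.0815) or library totals (0.0822), and in the 6 libraries of the contrast (0.1).

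SHMT2, the mitochondrial serine hydroxymethyltransferase (chr12:57229327-57234935, plus strand), stood at 254, 350 and 249 CPM in DMSO, 180.4, 238 and 187 with cisplatin and 217, 203 and 229 with Pt-ttpy. All treated libraries were below all controls, of which DMSO 2 was far the highest. The changes were −0.49 ± 0.15 with cisplatin (adjusted p = 0.0336) and −0.39 ± 0.15 with Pt-ttpy (adjusted p = 0.0946). Without DMSO 2 the cisplatin value was −0.32 (adjusted p = 0.0792), and leaving out cisplatin 1 (0.102), cisplatin 3 (0.0932) or any Pt-ttpy library (0.053 to 0.0554) also took the adjusted p over the threshold. So did upper-quartile factors (0.0833), library totals (0.0826) and the 6 libraries of the contrast (0.0995). In the fit of 7 libraries SHMT2 fell with both drugs, by 0.45 with cisplatin and by 0.21 with Pt-ttpy.

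PHGDH, the entry enzyme of the serine pathway, stood at 294, 391 and 277 CPM in DMSO, 194, 318 and 205 with cisplatin and 285, 280.4 and 305 with Pt-ttpy. Cisplatin 1 and 3 were below every other library, and cisplatin 2 lay within the controls. The cisplatin change of −0.42 ± 0.18 had an adjusted p of 0.118. The replicate number was also fitted as a block, which treats same-numbered libraries as matched, though the labels do not say what a number shares. The cisplatin change of PHGDH was then −0.44 and passed the test (adjusted p = 0.0347). Without cisplatin 2 it was −0.68 (adjusted p = 0.011). PSAT1, MTHFD2 and ALDH1L2 had cisplatin changes of −0.10, 0.06 and −0.01, and with 7 libraries PSAT1 (−0.25, adjusted p = 0.0013) and ALDH1L2 (−0.36, adjusted p = 0.00672) fell. ALDH1L2, which oxidises formyl-tetrahydrofolate in mitochondria, stood at 41.9, 34.1 and 38.1 CPM in DMSO, 56.2, 48.9 and 51.02 with Pt-ttpy and 32.7, 51.4 and 29.6 with cisplatin. Every Pt-ttpy library was above every control (0.45 ± 0.18, adjusted p = 0.123), and the value passed the test without cisplatin 2 (0.0181), in the 6 libraries of the contrast (0.0329) and in the fit of 7 libraries (0.38, adjusted p = 0.0016).

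None of the 6 other amino acid and glutathione enzymes passed the test in edgeR or DESeq2 with 9 libraries, with 0 at an unadjusted p under 0.05 for Pt-ttpy and 1 for cisplatin. ASNS, which makes asparagine and is a standard readout of ATF4 (chr7:97852118-97872542, minus strand), stood at 100.3, 118 and 99.6 CPM in DMSO, 50.1, 134 and 50.1 with cisplatin and 104, 90.2 and 106 with Pt-ttpy. Cisplatin 1 and 3 were near 50.1 CPM, far below all other libraries, and cisplatin 2 was the highest of the 9. The fitted change with cisplatin was −0.44 ± 0.33 (adjusted p = 0.371). Without cisplatin 2, the library that differs, it was −1.08 (adjusted p = 0.000409), a value that rests on 2 cisplatin libraries. The Pt-ttpy change was −0.09 ± 0.33 (adjusted p = 0.888), with a 95% interval from −0.81 to 0.64.

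CHAC1, which degrades glutathione, stood at 11.3, 12.8 and 11.3 CPM in DMSO, 6.28, 18.1 and 3.62 with cisplatin and 11.9, 9.67 and 12.9 with Pt-ttpy. It showed the same split, with cisplatin 2 the highest library and cisplatin 3 the lowest. Its cisplatin change was −0.34 ± 0.43 (adjusted p = 0.619) and −1.26 without cisplatin 2 (adjusted p = 0.00798). GPT2, the mitochondrial alanine transaminase, and CBS, the first enzyme of transsulfuration, had cisplatin changes of −0.16 and −0.03 and Pt-ttpy changes of 0.07 and −0.06. With 7 libraries GPT2 fell with cisplatin (−0.26, adjusted p = 0.0248). CBS has a near-identical copy in GRCh38, so its counts are uncertain. CTH, the next enzyme of transsulfuration, stood at 3.10, 2.69 and 2.57 CPM in DMSO and 3.61, 5.40 and 3.23 with cisplatin, without overlap (0.55 ± 0.25, adjusted p = 0.138), and at 3.08, 3.02 and 3.62 with Pt-ttpy. PYCR1 stood at 0.985, 0.544 and 0.499 CPM in DMSO, 0.837, 1.04 and 1.01 with cisplatin and 0.862, 1.38 and 1.22 with Pt-ttpy (0.77 ± 0.42, adjusted p = 0.243), and its exons overlap those of MYADML2.

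The transporters held the most calls. SLC7A5 (LAT1), SLC3A2 (its heavy chain, CD98), SLC7A1 (the carrier of cationic amino acids) and SLC1A5 (the glutamine and neutral amino acid carrier) fell with cisplatin, and SLC7A5 and SLC1A5 fell with Pt-ttpy. SLC7A5, which imports leucine and other large neutral amino acids, lies at chr16:87830023-87869488 on the minus strand. It stood at 490.4, 651 and 529.6 CPM in DMSO, 295, 323 and 282 with cisplatin and 357, 316 and 333 with Pt-ttpy. All 6 treated libraries were below all controls, which spread from 490.4 to 651 CPM. The change was −0.89 ± 0.12 with cisplatin (adjusted p = 0.000674) and −0.73 ± 0.11 with Pt-ttpy (adjusted p = 0.00589), and both calls held in all 21 alternatives.

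SLC3A2 stood at 185, 229 and 158 CPM in DMSO, 135, 141 and 120.2 with cisplatin and 150, 143 and 147 with Pt-ttpy. The treated libraries were below the controls, by a small gap to DMSO 3. The changes were −0.53 ± 0.13 with cisplatin (adjusted p = 0.0155, or 0.0508 without cisplatin 3 and 0.0655 in the 6 libraries of the contrast) and −0.38 ± 0.13 with Pt-ttpy (adjusted p = 0.0738, or 0.0406 without DMSO 3 and 0.0168 with 7 libraries). SLC1A5 (chr19:46774883-46788594, minus strand) stood at 309, 374 and 291 CPM in DMSO, 207, 226 and 199.8 with cisplatin and 249, 236 and 252 with Pt-ttpy. The 3 groups did not overlap, with DMSO highest and cisplatin lowest. It fell by 0.62 ± 0.11 on the log2 scale with cisplatin (adjusted p = 0.0038), a call kept in all 21 alternatives. With Pt-ttpy the change was −0.40 ± 0.11 (adjusted p = 0.0324), and the call was lost without DMSO 2 (0.0512) or Pt-ttpy 1, 2 or 3 (0.107, 0.138 and 0.0954) and with upper-quartile factors (0.0705) or library totals (0.0567).

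SLC7A1 stood at 309, 356 and 317 CPM in DMSO, 257, 275 and 234 with cisplatin and 294, 276 and 298 with Pt-ttpy. Its groups were also separate, in the same order. It fell with cisplatin by 0.36 ± 0.10 on the log2 scale (adjusted p = 0.0239), and the adjusted p was 0.0504 without DMSO 3, 0.0574 without cisplatin 1 and 0.0795 without cisplatin 3. It was 0.0786 with upper-quartile factors, 0.0715 with library totals and 0.0966 in the 6 libraries of the contrast. SLC1A4, a carrier of serine and alanine, and SLC6A9, the glycine carrier GLYT1, had cisplatin changes of −0.38 ± 0.17 and 0.38 ± 0.14 (adjusted p = 0.131 and 0.0704). With the replicate number as a block SLC6A9 passed the test (0.38, adjusted p = 0.0362), as it did without DMSO 2 (0.52, adjusted p = 0.016). Every cisplatin library of SLC6A9, at 39.02, 48.04 and 38.6 CPM, was above the controls at 29.1, 38.1 and 29.6. SLC1A4 passed it without cisplatin 2 (−0.62, adjusted p = 0.0099). With 7 libraries SLC6A9 rose with Pt-ttpy too (0.42, adjusted p = 0.000513).

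SLC7A11, which imports cystine for glutathione synthesis, stood at 20.2, 10.6 and 18.04 CPM in DMSO, 11.4, 25.3 and 10.7 with cisplatin and 26.6, 23.6 and 26.3 with Pt-ttpy. Every Pt-ttpy library was above every control, and the cisplatin group was split, with cisplatin 2 far above the other two. The changes were 0.65 ± 0.31 with Pt-ttpy (adjusted p = 0.191, or 0.0429 without cisplatin 2) and −0.04 ± 0.31 with cisplatin (adjusted p = 0.944). The lipoprotein receptor gene VLDLR, an ATF4 target of another kind (chr9:2621834-2660053, plus strand), was the only member called higher with Pt-ttpy. It stood at 6.27, 4.61 and 6.29 CPM in DMSO, 2.67, 10.5 and 6.25 with cisplatin and 12.9, 18.5 and 13.9 with Pt-ttpy, so all Pt-ttpy libraries were above all others. The Pt-ttpy change was 1.40 ± 0.37 (adjusted p = 0.0327), or 2.64-fold. That call was lost when any DMSO library (adjusted p from 0.0582 to 0.102) or any Pt-ttpy library (0.0812 to 0.125) was left out, with values from 1.23 to 1.5. The cisplatin change was 0.19 ± 0.37 (adjusted p = 0.758).

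**Figure D4:**
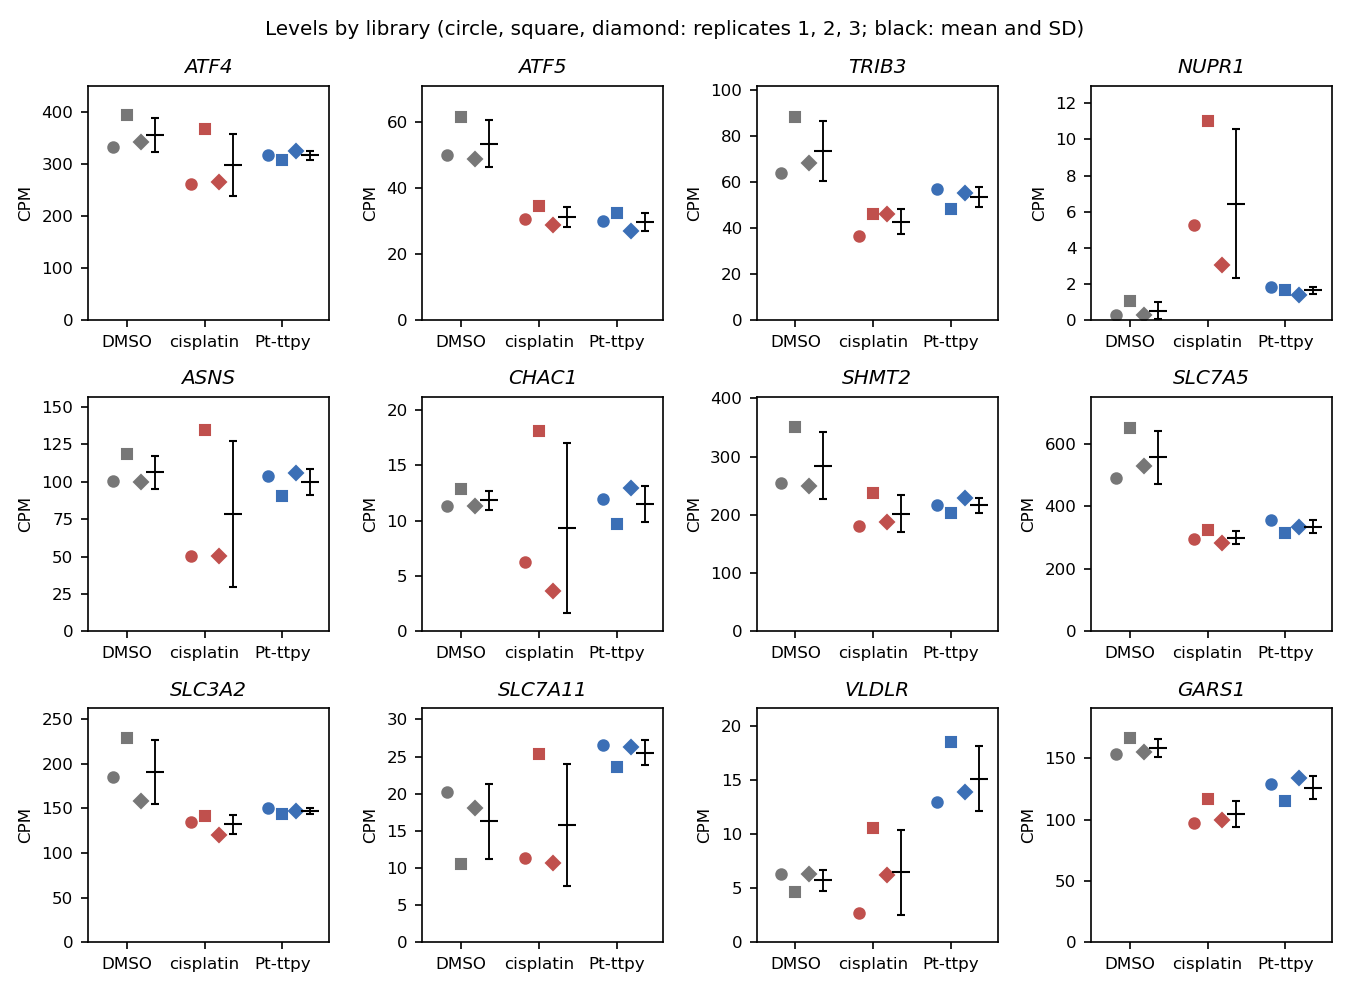
CPM (vertical axis, from 0) of 12 of the genes in each library, with circles, squares and diamonds for replicates 1, 2 and 3, and the mean and SD of each group in black. ATF5, SLC7A5 and SHMT2 are lower in every treated library than in every control; in ASNS and CHAC1 the square of cisplatin 2 is above all other points, while cisplatin 1 and 3 are below them.

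Aminoacyl-tRNA synthetases attach amino acids to tRNA, and XPOT carries tRNA out of the nucleus. With cisplatin GARS1, MARS1 and XPOT of these 7 genes fell. With Pt-ttpy 0 passed edgeR's test, with 2 at an unadjusted p under 0.05, and DESeq2 called GARS1 (adjusted p = 0.0361) and MARS1 (0.0297). GARS1, the glycyl-tRNA synthetase (chr7:30594681-30634033, plus strand), stood at 153, 167 and 155 CPM in DMSO, 97.4, 117 and 99.5 with cisplatin and 129, 115 and 134 with Pt-ttpy. The treated libraries were below the controls. It fell with cisplatin by 0.60 ± 0.11 on the log2 scale (adjusted p = 0.00424), kept in all 21 alternatives, and its Pt-ttpy change was −0.33 ± 0.11 (adjusted p = 0.0615, or 0.0247 without cisplatin 2 and 0.00113 with 7 libraries). The methionyl-tRNA synthetase MARS1 stood at 263, 348 and 277 CPM in DMSO, 173, 241 and 181 with cisplatin and 209.5, 209 and 233 with Pt-ttpy, again with no treated library among the controls. Its changes were −0.58 ± 0.14 (adjusted p = 0.0165) and −0.45 ± 0.14 (adjusted p = 0.0604). The cisplatin call was lost without cisplatin 1 (0.0552) or cisplatin 3 (0.0514) and in the 6 libraries of the contrast (0.0614). The Pt-ttpy value passed the test without cisplatin 2 (0.0175) and with 7 libraries (0.000235).

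XPOT stood at 420, 323 and 418 CPM in DMSO, 316, 256 and 316 with cisplatin and 357, 329.7 and 358 with Pt-ttpy. The cisplatin libraries were below the controls by a gap of only a few CPM between cisplatin 1 and 3 and DMSO 2. The cisplatin change of −0.39 ± 0.12 (adjusted p = 0.0424) was the weakest of the calls: its adjusted p was over the threshold without any library except DMSO 2, between 0.0551 and 0.135. It was over the threshold too with upper-quartile factors (0.079), library totals (0.0961), a minimum count of 50 (0.0508) and the 6 libraries of the contrast (0.12). With 7 libraries XPOT fell with Pt-ttpy (−0.26, adjusted p = 0.000248). The cysteinyl-tRNA synthetase CARS1 stood at 72.9, 90.7 and 70.6 CPM in DMSO, 47.5, 72.2 and 49.6 with cisplatin and 63.9, 68.3 and 63.3 with Pt-ttpy. Its cisplatin change of −0.47 ± 0.16 (adjusted p = 0.0568) passed the test with the replicate number as a block (−0.48, adjusted p = 0.0118) and without cisplatin 2 (−0.69, adjusted p = 0.00725). WARS1, SARS1 and AARS1, for tryptophan, serine and alanine, had cisplatin changes of −0.31, −0.07 and 0.06 and Pt-ttpy changes of −0.09, −0.20 and 0.07. WARS1 passed with cisplatin when cisplatin 2 was left out (−0.46, adjusted p = 0.0461), and AARS1 rose with Pt-ttpy with 7 libraries (0.18, adjusted p = 0.0132).

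The 2 drugs, each at its IC80, were compared directly. In the fit of 9 libraries 0 of the 41 genes passed edgeR's test, with 7 at an unadjusted p under 0.05, and only 0.514% of all genes were called. Over all 15558 genes and loci, 1254 had an unadjusted p under 0.05 in this contrast. DESeq2 called 2 of the 41 genes, NUPR1 lower with Pt-ttpy than with cisplatin (−1.98, adjusted p = 0.00934) and VLDLR higher (1.20, adjusted p = 0.0472). Of the 41 genes 30 had higher fitted levels with Pt-ttpy than with cisplatin, and the median log2 difference was 0.16 (0.00 over all genes). The intervals were wide: NUPR1 differed by −1.96 ± 0.52 (95% interval −3.09 to −0.84, adjusted p = 0.181), VLDLR by 1.21 (0.41 to 2.02, adjusted p = 0.295), and ASNS by 0.35 (−0.37 to 1.08, adjusted p = 0.835). The differences of ATF4 at 0.09 (−0.20 to 0.37) and ATF5 at −0.08 (−0.36 to 0.21) were bounded more closely.

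Cisplatin 2 carried higher levels of these genes than its partners as a rule and not only in ASNS. It was the highest cisplatin library in 33 of the 41 genes (80.5%, against 42.1% of all genes tested), at a median of 1.29 times the mean of cisplatin 1 and 3 (1.00 over all genes). DMSO 2 was the highest control in 28 (68.3%, against 47.9%), at a median ratio of 1.17 (1.05 over all genes). Pt-ttpy 2 was the highest of its group in 6 (14.6%, against 31.5%). The ratios in cisplatin 2 reached 3.65 for CHAC1, 2.69 for ASNS, 2.65 for NUPR1, 2.36 for VLDLR, 2.30 for SLC7A11 and 2.20 for JDP2. Transcript GC content was 62.6% for CHAC1, 47.0% for ASNS and 35.4% for SLC7A11. Across the 41 genes the ratio in cisplatin 2 had a Spearman rho of −0.02 with GC content, and the ratio in DMSO 2 had 0.65. These are descriptions over genes that share their libraries. What set cisplatin 2 apart was not tested. For ATF4, ASNS, CHAC1, PHGDH, SLC1A4, CARS1 and WARS1 it was the highest cisplatin library. The values given for these genes without it were bound to be lower, so they are no separate support for a fall.

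Same-numbered cisplatin and DMSO libraries deviated together, so the change was also read within pairs. Libraries 1 and 3 did so across numbers nearly as much, so pair 1 and pair 3 are hardly told apart. The median log2 ratio of the 41 genes was −0.34 in pair 1, −0.03 in pair 2 and −0.37 in pair 3, with medians of −0.01, 0.02 and −0.01 over all genes. Lower with cisplatin were 32, 21 and 29 of the genes in these pairs. All 3 pairs agreed on a lower level in 17 genes, among them ATF4, ATF5, TRIB3, PHGDH, SHMT2, SLC7A5 and GARS1, and on a higher level in 4, which were DELE1, NUPR1, CTH and SLC6A9. The matching shares over all genes were not counted, so the counts by pair describe the set only. In ASNS the ratios were −1.002, 0.18 and −0.99, in CHAC1 −0.85, 0.49 and −1.65, and in SLC7A11 −0.83, 1.26 and −0.75. The replicate block brought the cisplatin count from 12 to 15 by adding PHGDH, SLC6A9 and CARS1. Over all genes it brought the count from 3190 to 3712.

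**Figure D5:**
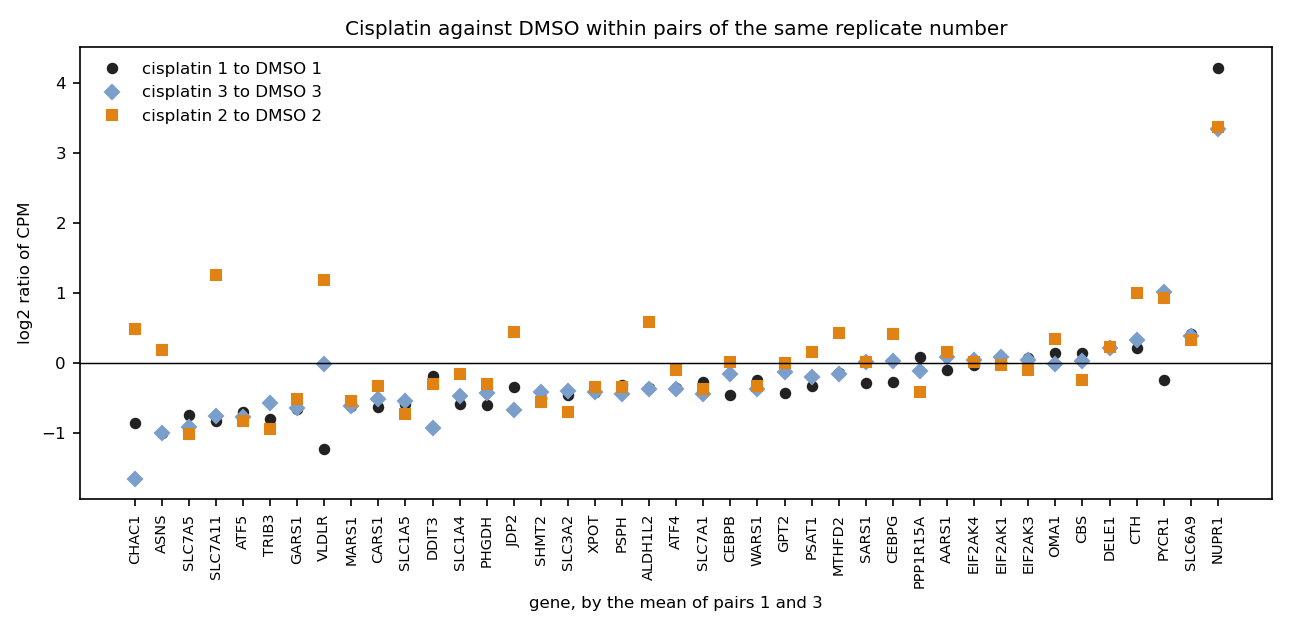
Log2 ratio of CPM between cisplatin and DMSO within each pair of the same replicate number (vertical axis), for the 41 genes ordered by the mean of pairs 1 and 3. Black circles are pair 1, blue diamonds pair 3 and orange squares pair 2; the squares of CHAC1, ASNS, SLC7A11, VLDLR and ALDH1L2 lie above 0 where the mean of the other two pairs is below it.

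Without DMSO 2 and cisplatin 2, 23 of the 41 genes were called between the 2 drugs, against 0 with all 9 libraries. That fit left groups of 2, 2 and 3 libraries and a common biological coefficient of variation of 11.3%, against 19.1% with all 9. Cisplatin 2 was the highest cisplatin library in 33 of the 41 genes, so leaving it out lowers the cisplatin level of those genes beforehand. The calls below describe that fit and are no separate support for a difference. With cisplatin 23 of the 41 genes fell and 3 rose (16.4% and 13.9% of all genes). The 3 that rose with cisplatin are a smaller share than over all genes. With Pt-ttpy 9 fell and 7 rose (17.4% and 15.8% of all genes). In that contrast 33.2% of all genes were called in either direction. The Pt-ttpy counts of the set are near their background, so the names below list calls and mark no change particular to the set. The genes that rose with Pt-ttpy were DELE1, NUPR1, ALDH1L2, SLC7A11, SLC6A9, VLDLR and AARS1, and those that fell were ATF5, TRIB3, SHMT2, SLC7A5, SLC3A2, SLC1A5, GARS1, MARS1 and XPOT. With cisplatin DELE1, NUPR1 and SLC6A9 rose, and the fallen genes were ATF4, ATF5, JDP2, TRIB3, PHGDH, PSAT1, PSPH, SHMT2, ALDH1L2, ASNS, GPT2, CHAC1, SLC7A5, SLC3A2, SLC7A11, SLC7A1, SLC1A5, SLC1A4, CARS1, GARS1, WARS1, MARS1 and XPOT. Between the drugs 22 genes were higher and 1 lower with Pt-ttpy than with cisplatin, against 2.37% and 2.83% of all genes. The higher genes comprised 4 of the 9 regulators, 5 of the 6 serine and one-carbon enzymes, 3 of the 6 other enzymes, 6 of the 8 transport genes and 4 of the 7 tRNA genes, and none of the 5 kinase genes. NUPR1 was the lower one.

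In that fit the log2 change of ASNS was −0.99 with cisplatin (adjusted p = 2.85e-08) and 0.00 with Pt-ttpy (adjusted p = 0.976), a difference of 1.00 ± 0.07 (adjusted p = 1.08e-07). CHAC1 differed between the drugs by 1.22 ± 0.21 (adjusted p = 0.00204) and SLC7A11 by 1.21 ± 0.11 (adjusted p = 2.02e-06). Against DMSO, SLC7A11 changed by 0.42 with Pt-ttpy and by −0.79 with cisplatin. PHGDH (0.54), ALDH1L2 (0.74), SLC1A4 (0.66), CARS1 (0.42) and ATF4 (0.27) were higher with Pt-ttpy than with cisplatin as well. The difference of ATF5 was 0.00 ± 0.09 and did not pass the test. Leaving out cisplatin 2 alone gave nearly the same differences, 1.00 for ASNS and 0.74 for ALDH1L2, but only these 2 genes passed the test (adjusted p = 0.00563 and 0.0362). DMSO 2 is in neither group of this contrast and enters it through the filter, the scaling and the shared spread. The 23 calls between the drugs rest on both omissions, and with all 9 libraries there are 0.

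Other genes of the pathway were read from lists outside the set. Of 18 tested ATF4 and CHOP targets, 6 rose and 1 fell with Pt-ttpy, and 6 rose and 1 fell with cisplatin. TXNIP, which binds thioredoxin and limits glucose uptake, rose by 1.97 ± 0.25 with Pt-ttpy (adjusted p = 0.00285) and 2.36 with cisplatin (adjusted p = 0.000245). DDIT4 (REDD1), an inhibitor of mTORC1, rose by 1.58 with Pt-ttpy (adjusted p = 0.0154), and the autophagy receptor SQSTM1 fell by 0.57 (adjusted p = 0.0184). GDF15, a stress cytokine, stood at 6.89, 11.6 and 6.99 CPM in DMSO, 104, 116 and 76.7 with cisplatin and 15.1, 16.3 and 12.9 with Pt-ttpy. It differed between the drugs by −2.75 ± 0.22 (adjusted p = 0.000254), the only gene of this list called in that contrast with 9 libraries. With 7 libraries 7 of the 18 were higher and 5 lower with Pt-ttpy than with cisplatin. SESN2, which inhibits mTORC1 when leucine is short, rose by 0.93 with cisplatin (adjusted p = 0.00164). Several of these genes also answer to p53 or other signals. The median of the list was 0.32 with Pt-ttpy and −0.04 with cisplatin.

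The background for these lists is that given above, 6.45% of all genes lower and 5.59% higher with Pt-ttpy and 9.78% lower and 10.7% higher with cisplatin. Of 17 other cytosolic synthetase genes 5 fell with Pt-ttpy and 7 with cisplatin, and none rose. The median of that list was −0.29 with Pt-ttpy and −0.35 with cisplatin. YARS1 stood at 341, 425 and 335 CPM in DMSO, 242, 252 and 248 with cisplatin and 250.2, 256 and 275 with Pt-ttpy (−0.49 and −0.57, adjusted p = 0.0161 and 0.00517). Of 17 mitochondrial synthetase genes 1 fell with Pt-ttpy (5.88%, near the background) and 4 with cisplatin, and YARS2 had the lowest adjusted p in both (−0.56 and −0.58). Of 17 genes of eIF2, its exchange factor eIF2B, PKR and the phosphatase, 5 fell with each drug, and none rose. Their median was −0.22 with Pt-ttpy and −0.25 with cisplatin. The exchange factor subunits EIF2B1 (−0.57 and −0.60) and EIF2B2 (−0.49 and −0.54) and the phosphatase subunit PPP1CA (−0.63 and −0.67) were among them in both. Between the drugs none of these 3 lists held a called gene, in the fit of 9 or of 7 libraries. The mitochondrial synthetase list had a median of −0.20 with Pt-ttpy and −0.13 with cisplatin.

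Of 20 genes of the endoplasmic reticulum branch of the unfolded protein response, 4 fell with Pt-ttpy and 6 with cisplatin, and none rose. Their median was −0.19 with Pt-ttpy and −0.19 with cisplatin. The chaperone HSPA5 (BiP) stood at 1214, 1269 and 1164 CPM in DMSO, 931, 912 and 933 with cisplatin and 925, 930.0 and 970.5 with Pt-ttpy (−0.37 ± 0.08 and −0.39 ± 0.08, adjusted p = 0.0179 and 0.00792). Of 12 mitochondrial chaperones and proteases 2 fell with each drug, AFG3L2 and DNAJA3. Of 17 tested folate and glycine genes 0 were called by edgeR with Pt-ttpy, with 7 at an unadjusted p under 0.05. With cisplatin the serine carrier SFXN1 (−0.44) and MTHFD1L (−0.40) fell and the glycine decarboxylase GLDC (0.38) rose.

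Of 13 tested other amino acid transporters 2 fell with Pt-ttpy, and 4 fell and 1 rose with cisplatin. The lysosomal carrier SLC36A1 fell with both (−0.72 and −0.77, adjusted p = 0.0104 and 0.0036), and the glutamate carrier SLC1A3 fell by 1.66 with cisplatin (adjusted p = 0.00245). SLC1A1, another glutamate carrier, stood at 14.6, 16.2 and 21.4 CPM with cisplatin and 31.1, 35.1 and 31.3 with Pt-ttpy, a difference of 0.90 ± 0.15 (adjusted p = 0.0241). The list had a median of −0.05 with Pt-ttpy and −0.29 with cisplatin. Of 19 tested enzymes of proline, glutamate, aspartate and transsulfuration, 1 rose and 3 fell with Pt-ttpy and 2 rose and 4 fell with cisplatin. PRODH, which breaks down proline and is a p53 target, stood at 0.647, 0.916 and 0.499 CPM in DMSO, 6.50, 15.2 and 6.17 with cisplatin and 3.66, 2.03 and 2.37 with Pt-ttpy (1.97 and 3.76, adjusted p = 0.0158 and 0.000298). The transaminase genes GOT1 and GOT2 and the ornithine transaminase gene OAT fell with Pt-ttpy, by 0.38 to 0.41 on the log2 scale. The medians of the 3 lists of proline and related enzymes, of folate and glycine enzymes and of mitochondrial chaperones were −0.14, −0.12 and −0.17 with Pt-ttpy and −0.21, −0.16 and −0.27 with cisplatin.

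The promoter core was set beside the calls as a description. With all 9 libraries 5 of the 12 genes with the core and 4 of the 21 with a window and no core fell with cisplatin (9.78% of all genes), with median log2 changes of −0.41 and −0.10. With Pt-ttpy 1 of the 12 and 2 of the 21 fell (6.45% of all genes), and between the drugs 0 of 12 and 0 of 21 were called by edgeR. In the fit of 7 libraries 10 of 12 and 8 of 21 fell with cisplatin, and so did 5 of the 8 genes without a window (16.4% of all genes). Higher with Pt-ttpy than with cisplatin in that fit were 10 of 12, 8 of 21 and 4 of 8 (2.37% of all genes). Among the genes with the core, AARS1 (0.18, adjusted p = 0.0637) and SLC3A2 (0.20, adjusted p = 0.106) did not pass edgeR's test between the drugs in that fit.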

How the data were processed

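Gene counts from 9 RNA-seq libraries were used as the authors deposited them, in 1 table of whole-number counts per gene. The build was GRCh38 per the submitters' processing notes; for aligner, counter and strand setting the entry is "not given in the sources used here". Loci named newGene (4568 rows, 1.56 to 2.18% of counts) carry no gene name. Genes were named and placed with GENCODE 29, and promoter windows came from RefSeq (GRCh38.p14). The columns of the table all matched a sample. Library totals were 31.3 to 40.8 M counts.

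Tests were edgeR 4.0.16 quasi-likelihood F-tests in R 4.3.3 with 1 mean per group over 9 libraries, TMM factors, filterByExpr (minimum count 10) and Benjamini-Hochberg adjustment over 15558 genes, called at 0.05. Fitted log2 changes use a prior count of 0.125, standard errors come from the F statistic, and intervals are 95%. The test was checked on simulated counts. DESeq2 1.42.0, limma 3.58.1 (voom), other scalings and filters, the libraries of 1 contrast, 7 libraries, a replicate block and the omission of each library were alternatives.

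The labels number the replicates. Deviations from group means correlated at 0.24, 0.40 and 0.22 in same-numbered DMSO and cisplatin libraries, over 0.1 in every pair, so these were read as pairs. Across numbers, DMSO 1 with cisplatin 3 and DMSO 3 with cisplatin 1 were nearly as high, at 0.17 and 0.18. DMSO 2 was at −0.30 and −0.28 with cisplatin 1 and 3, and cisplatin 2 at −0.29 and −0.28 with DMSO 1 and 3. The values thus set library 2 apart and hardly tell pair 1 from pair 3. The labels do not say what a number shares. For same-numbered Pt-ttpy and DMSO libraries the values were 0.02, 0.01 and −0.04, and for Pt-ttpy with cisplatin 0.11, 0.04 and 0.03. No 2 libraries of a group agreed within sampling noise.

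The members and all lists were chosen with earlier results of these data known. Members called in a contrast, or with a log2 change of at least 0.5, are given by library, and up to 4 called genes with the lowest adjusted p are named from each other list and contrast.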

Additional observations from a re-analysis of the deposited data

How the results depend on the processing

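No result changed sign under an alternative where it had been called. With Pt-ttpy against DMSO, 4 members were called, and 9 with DESeq2, 16 with 7 libraries, 10 at an adjusted p under 0.1 and between 2 and 11 with single libraries left out. Over all genes 1874 were called, and 2686 with DESeq2, 5189 with 7 libraries and 3313 at an adjusted p under 0.1. With single libraries left out the count over all genes was between 185 and 3004. With cisplatin against DMSO, 12 members were called, and 6 in the 6 libraries of the contrast, 26 with 7 libraries and between 6 and 18 with single libraries left out. Over all genes 3190 were called, 1313 in the 6 libraries of the contrast and between 2012 and 3100 with single libraries left out. Between the drugs 0 members were called, 2 with DESeq2, 23 with 7 libraries and between 0 and 2 with single libraries left out. Over all genes that contrast called 80, and 251 with DESeq2, 813 with 7 libraries, 138 at an adjusted p under 0.1 and between 18 and 155 with single libraries left out.

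The replicate block gave 15 members with cisplatin against DMSO, adding PHGDH, SLC6A9 and CARS1, and changed no other member's call in that contrast. With the block 8 members were called for Pt-ttpy against DMSO (among them NUPR1, 1.82, adjusted p = 0.012) and 1 between the drugs (NUPR1, −1.74, adjusted p = 0.043), where the numbers did not pair the libraries, and 140 genes in all between the drugs. Over all genes the block called 2539 with Pt-ttpy and 3712 with cisplatin, against 1874 and 3190 without it. After the data had been seen, 2 alternatives were added. In the 6 libraries of a contrast with the replicate block, 8 members were called with Pt-ttpy and 16 with cisplatin, and 48 genes between the drugs. Over all genes that fit called 1935 with Pt-ttpy and 3095 with cisplatin. Without the newGene loci 4 and 11 members were called, with XPOT lost (adjusted p = 0.0587).

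Across all alternatives, ATF5 and SLC7A5 kept their calls in both contrasts, and TRIB3, NUPR1, SLC1A5 and GARS1 kept theirs with cisplatin. Lost at least once were the calls of SLC1A5 and VLDLR with Pt-ttpy, and of PSPH, SHMT2, SLC3A2, SLC7A1, MARS1 and XPOT with cisplatin. Where a group was left with 2 libraries, its spread was pooled with that of the others. The cause of these shifts was not tested. Counts of 10 to 37 in DMSO limit NUPR1, and 3 libraries a group limit all intervals.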
